A study of Homo sapiens with 18 samples.

Results

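The 9 genes described here are HMOX1, NQO1, GCLC, GCLM, SLC7A11, TXNRD1, SRXN1, ME1 and OSGIN1, a set of antioxidant and glutathione genes that are widely used as targets of the transcription factor NRF2. They were taken by symbol from a table of 60683 genes, and all 9 were among the 18159 genes with enough counts to be tested. The RNA came from Cal27, an established human line of oral squamous cell carcinoma from the tongue, so every library is of 1 cell line. Cells were kept for 24 h in high-glucose DMEM, in glucose-deprived DMEM, or in the high-glucose medium to which 5 mM 2-DG was added. 2-DG (2-deoxyglucose) is a glucose analog that cells take up and phosphorylate but cannot pass through glycolysis. In each medium 3 cultures received 10 nM recombinant human CGRP, the neuropeptide calcitonin gene-related peptide, and 3 received control medium, which gives 6 groups of 3 libraries. Which arm is CGRP rests on the design text, which reads the library names TG as the peptide and capTG as control medium, whereas the culture notes mention CM without naming the peptide. The design text calls the 3 repetitions of a group biologically independent. Each p-value rests on the spread between such libraries, estimated for each gene over all 6 groups together.

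NRF2, encoded by NFE2L2, is held in the cytoplasm by KEAP1, which presents it to a CUL3 ubiquitin ligase for breakdown. Electrophiles and oxidants modify KEAP1, and the NRF2 that then accumulates pairs with a small MAF protein in the nucleus and binds the antioxidant response element of its target genes, where BACH1 is a repressor that competes for the same element. Several targets have a further activator: SLC7A11 is a well-known gene of the amino acid response through ATF4, and HMOX1 is strongly repressed by BACH1 until heme binds it.

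Promoter sequence from RefSeq (GRCh38.p14) was at hand for NQO1, GCLC, GCLM, TXNRD1, SRXN1, ME1 and OSGIN1, in 8 windows that run from 250 bases before a transcription start to 50 bases after it. HMOX1 and SLC7A11 had no entry. The core of the antioxidant response element, TGACNNNGC, was searched on both strands and was found in 4 of the 8 windows, against 13.3% of all 35116 promoter windows of the same length. A narrower form of this core that also holds an AP-1 motif, TGACTCAGC, was found in 1 of the 8, against 0.561% of all windows. That window is also among the 4. The AP-1 motif TGANTCA, which overlaps this form, was found in 2 of the 8, against 7.71%. The upstream matches are printed 5′ to 3′ on the strand that carries the motif, with 10 flanking bases on each side and the motif in capitals, because they show how far the same core varies between genes that are grouped under 1 factor. A match describes the letters in a window and does not show that a factor binds there.
GCLM (chr1:93909446-93909474, gene on the minus strand, motif on the opposite strand, 34 to 26 bases upstream of the start): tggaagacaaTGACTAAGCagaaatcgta
ME1 (chr6:83431170-83431198, gene on the minus strand, motif on the gene's strand, 137 to 129 bases upstream): tctcctgccaTGACTCAGCgcttctcgca
TXNRD1, one start (chr12:104215670-104215698, gene on the plus strand, motif on the gene's strand, 99 to 91 bases upstream): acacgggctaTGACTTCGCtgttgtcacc
TXNRD1, another start (chr12:104286920-104286948, gene on the plus strand, motif on the opposite strand, 102 to 94 bases upstream): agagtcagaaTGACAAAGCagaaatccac
OSGIN1, AP-1 motif only (chr16:83953133-83953159, gene on the plus strand, motif on the gene's strand, 97 to 91 bases upstream): gggcccctgcTGACTCAcgcttatgaa

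The deposited counts summed to between 28038260 and 32661768 reads per library. Levels are given as CPM, counts scaled to the same library total, with TMM factors that correct that total for RNA composition, and as mean ± SD of 3 libraries. A gene was said to rise or fall when edgeR's quasi-likelihood test gave an adjusted p under 0.05 over all 18159 genes. All 6 squamous markers were present in every library, with KRT5 at a median of 2161 CPM. The Schwann cell marker SOX10 was at 0 in 14 of the 18 libraries, and the leukocyte markers LYZ and PTPRC in 13 and 12. The summed level of the 6 squamous markers was 3832 to 3881 CPM in the high-glucose controls and 2193 to 2234 CPM in the deprived controls. The 3 endothelial markers, of which CDH5 was the most abundant, summed to 25.4 to 26.1 CPM and to 1.68 to 2.45 CPM in the same groups, and the 4 fibroblast markers to 26.3 to 28.1 CPM and to 9.98 to 10.9 CPM; the part of these shifts in the results was not tested. With CGRP the endothelial sum was 44.0 to 46.1 CPM in high glucose and 40.5 to 44.96 CPM in 2-DG medium, beside 20.7 to 25.4 CPM in the 2-DG controls, and its part in the CGRP results was not tested either. In bulk RNA a change in the number of cells of one state and a change in RNA per cell cannot be told apart.

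The second libraries of the deprived CGRP group and of the 2-DG control group stood apart from their group mates. On the second principal component, which held 9.0% of the variance, they lay at 39.0 and 23.7, whereas the other libraries of those groups lay between -9.1 and -5.8. Their genes of at most 2223.5 exon bases were higher than in their mates by a median of 0.51 and 0.32 on the log2 scale, and genes of at least 6713.5 exon bases were lower, with medians of -0.31 and -0.20. SLC7A11, whose exons span 9645 bases, was in the deprived CGRP library at 55.3% of the mean of its mates, and in the 2-DG control library at 64.0%. NQO1, with 3254 exon bases, was at 125% and 123%, TXNRD1, with 6708, at 74.2% and 87.3%, and GCLC, with 8646, at 80.9% and 89.4%. Among the shorter genes HMOX1, with 2405 bases, was at 92.3% and 102%, and SRXN1, with 2698 bases and few reads, at 54.7% and 163%, so not every gene followed its length. Because the spread of a gene is estimated over all groups together, these libraries also enter tests between other groups. For SLC7A11 with CGRP in high glucose the standard error on the log2 scale was 0.19, and 0.05 without both. Results that rest on these libraries are therefore given with and without them.

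**Figure D1:**
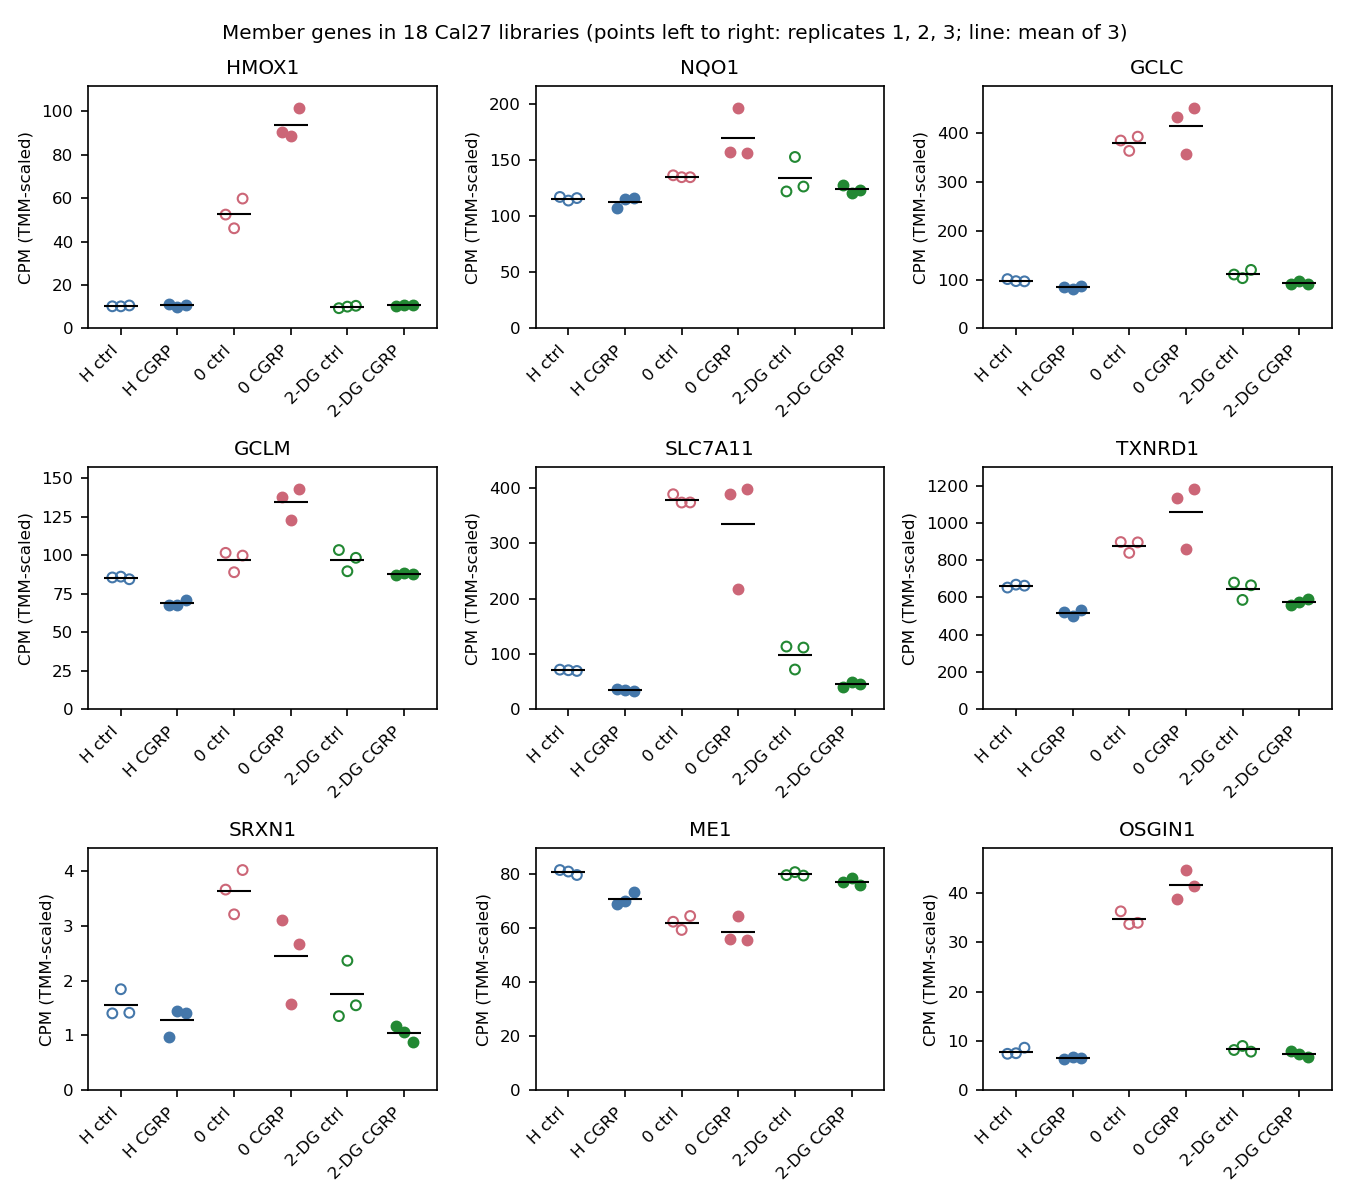
Level of each of the 9 genes in all 18 libraries, as TMM-scaled CPM on the vertical axis, in high-glucose (H), glucose-deprived (0) and 2-DG medium with control medium (ctrl, open) or CGRP (filled); points are replicates 1, 2 and 3 from left to right and lines are means. HMOX1, GCLC, SLC7A11 and OSGIN1 are several-fold higher in both deprived groups than elsewhere, while ME1 is lowest there.

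The first question is how the genes stood in the 3 media without CGRP. Glucose deprivation raised 8 of the 9 genes and lowered ME1, in a comparison in which 60.6% of all tested genes passed the test, 31.0% higher and 29.6% lower. The median log2 change of the 9 was 1.22, against 0.02 for all tested genes. The sizes fell into 2 ranges. SLC7A11, HMOX1, OSGIN1, GCLC and SRXN1 rose by 2.33-fold to 5.36-fold, whereas TXNRD1, NQO1 and GCLM rose by 1.13-fold to 1.33-fold. In none of the 9 genes did the 3 deprived control libraries overlap the 3 high-glucose control libraries, which was also true of 75.8% of all tested genes.

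SLC7A11 (ENSG00000151012) encodes the light chain of the cystine importer xCT, which brings in the cystine from which cysteine for glutathione is made. It measured 71.8, 70.8 and 69.5 CPM in the high-glucose controls and 389, 374 and 374 CPM in the deprived controls. The 2-DG controls held 114, 72.1 and 112 CPM. All 3 deprived libraries lay far above every other control library, and the low 2-DG value is that of the library that stands apart. The rise with deprivation was 2.42 ± 0.19 (SE) on the log2 scale, adjusted p = 1.6e-08. With 2-DG the difference was 0.49 ± 0.19, adjusted p = 0.099. Without both libraries that stand apart it was 0.67 ± 0.05, adjusted p = 1.9e-12.

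GCLC (ENSG00000001084) and GCLM (ENSG00000023909) encode the catalytic and the modifier subunit of glutamate-cysteine ligase, the rate-limiting enzyme of glutathione synthesis. GCLC went from 101, 97.0 and 96.5 CPM in the high-glucose controls to 386, 364 and 393 CPM in the deprived controls, a rise of 1.96 ± 0.08 on the log2 scale, adjusted p = 3e-12. GCLM went from 85.6, 86.2 and 84.5 CPM to 102, 89.0 and 99.8 CPM, a rise of 0.18 ± 0.07, adjusted p = 0.025. The catalytic subunit thus rose 3.88-fold and the modifier subunit 1.13-fold in the same libraries. The rise of GCLM was lost in 11 of 26 alternative analyses, with a log2 difference down to 0.02 under total-count scaling. In 2-DG medium GCLC measured 111, 103 and 120 CPM and GCLM 103, 89.7 and 98.4 CPM, in each case above all 3 high-glucose controls, with adjusted p-values of 0.14 and 0.073. Without both libraries that stand apart, GCLC was higher by 0.22 ± 0.04 and GCLM by 0.23 ± 0.04 with 2-DG, adjusted p = 2e-05 and 1.5e-05.

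HMOX1 (ENSG00000100292) encodes heme oxygenase, which breaks heme down to biliverdin, iron and carbon monoxide. It was at 10.2, 10.2 and 10.6 CPM in the high-glucose controls and at 52.5, 46.2 and 59.8 CPM in the deprived controls. In the 2-DG controls it was at 9.31, 10.0 and 10.4 CPM, which overlaps the high-glucose range. Deprivation raised it by 2.36 ± 0.09 on the log2 scale, adjusted p = 1.1e-12, and the difference with 2-DG was -0.06 ± 0.09, adjusted p = 0.76. OSGIN1 (ENSG00000140961), which encodes an oxidative stress induced growth inhibitor, was also several-fold higher without glucose. Its controls held 7.41, 7.53 and 8.65 CPM in high glucose, 36.3, 33.7 and 33.9 CPM without glucose and 8.18, 9.0 and 7.84 CPM with 2-DG. Its rise with deprivation was 2.14 ± 0.08, adjusted p = 1.3e-12.

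NQO1 (ENSG00000181019) encodes a quinone reductase and is a standard readout of NRF2 activity. It measured 117, 114 and 116 CPM in high glucose and 136, 135 and 135 CPM after deprivation, a rise of 0.23 ± 0.09, adjusted p = 0.034. That call was lost in 13 of 26 alternatives, with a difference of 0.07 under total-count scaling. TXNRD1 (ENSG00000198431), the cytosolic thioredoxin reductase, measured 653, 669 and 663 CPM in high glucose and 897, 839 and 896 CPM after deprivation, a rise of 0.41 ± 0.09, adjusted p = 0.0011. Under total-count scaling it was 0.25, adjusted p = 0.057. Total-count scaling moved the median of all genes in this comparison from 0.023 to -0.133, and the rises of NQO1 and GCLM, unlike that of TXNRD1, were of about the size of that shift. The TXNRD1 call held in the other 25 alternatives.

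SRXN1 (ENSG00000271303) encodes sulfiredoxin, which restores overoxidised peroxiredoxins. It is by far the least abundant of the 9, with 27 to 118 reads per library. It measured 1.40, 1.84 and 1.41 CPM in the high-glucose controls and 3.66, 3.21 and 4.01 CPM in the deprived controls, a rise of 1.22 ± 0.23, adjusted p = 0.00026. In GENCODE 29, 85.0% of its exon bases are shared with AL121758.1 on the same strand, a gene with 0 counts in all 18 libraries, so the level of SRXN1 depends on how shared reads were assigned. ME1 (ENSG00000065833), the cytosolic malic enzyme that makes NADPH, went the other way, from 81.3, 80.7 and 79.5 CPM to 62.2, 59.2 and 64.3 CPM, and fell by 0.38 on the log2 scale (SE 0.06, adjusted p = 2.1e-05).

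The 2-DG controls did not pass against the high-glucose controls in any of the 9 genes, in a comparison where 13.8% of all genes passed, 7.99% higher and 5.85% lower. In edgeR 4 of the 9, NQO1, GCLC, GCLM and SLC7A11, had an unadjusted p under 0.05, and DESeq2 called 0. The share of all genes under that unadjusted threshold was not worked out, so those 4 have no background to be set against. When both libraries that stand apart were left out, NQO1, GCLC, GCLM and SLC7A11 rose and the other 5 did not pass, where 32.5% of all genes passed, 18.1% higher. The 2-DG controls also differed from the deprived controls directly, where 57.5% of all genes passed, 28.9% higher and 28.6% lower. ME1 was higher with 2-DG by 0.36 ± 0.06, adjusted p = 3.4e-05. HMOX1, GCLC, SLC7A11, TXNRD1, SRXN1 and OSGIN1 were lower, with log2 differences from -2.41 for HMOX1 to -0.45 for TXNRD1. NQO1 and GCLM did not pass, at -0.02 and 0.00.

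**Figure D2:**
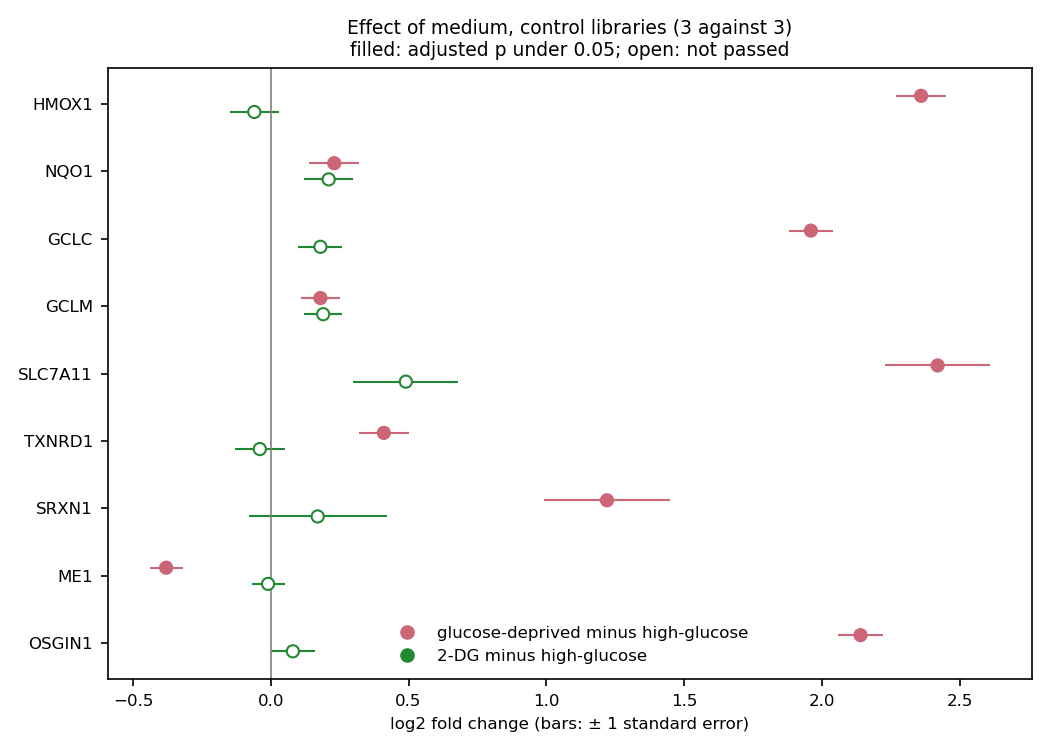
Log2 fold change of each gene between control libraries, deprived minus high glucose (red) and 2-DG minus high glucose (green), with bars of 1 standard error, from 3 against 3 libraries; filled points passed an adjusted p of 0.05. All 9 red points are filled, from -0.38 for ME1 to 2.42 for SLC7A11, and all 9 green points are open.

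The second question is what CGRP did in each medium. In high glucose it lowered 3 of the 9 genes and raised none, where 4.33% of all tested genes passed, 2.04% higher and 2.29% lower. With only the high-glucose libraries in the model 6 of the 9 passed, all lower, where 3653 of all genes passed in place of 787. In deprived medium CGRP raised 4 of the 9 and lowered none, where 13.0% passed, 6.38% higher and 6.58% lower. With only the deprived libraries in the model HMOX1 alone passed, at 0.83 ± 0.12, adjusted p = 0.043, where 141 of all genes passed in place of 2354. In 2-DG medium CGRP lowered 2 of the 9 and raised none, where 12.2% passed, 5.31% higher and 6.89% lower. The median log2 difference of the 9 was -0.27 in high glucose, 0.26 in deprived medium and -0.16 in 2-DG medium, and that of all tested genes was -0.01, 0.01 and -0.01.

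SLC7A11 showed the widest CGRP difference of the 9 in high glucose and in 2-DG medium. With CGRP in high glucose it measured 36.3, 34.9 and 33.5 CPM, about 2.03-fold below the controls listed above, and no library overlapped. It fell by 1.02 on the log2 scale (SE 0.19, adjusted p = 0.0047). In 2-DG medium the CGRP libraries held 40.6, 49.98 and 45.7 CPM, 2.18-fold below their controls, again with no overlap, and it fell by 1.13 (SE 0.19, adjusted p = 0.00086). In deprived medium the CGRP libraries held 389, 217 and 398 CPM beside controls of 374 to 389 CPM. Of these 3, the value of 217 CPM is that of the library that stands apart. The difference was -0.18 ± 0.18, adjusted p = 0.56, and without both libraries that stand apart it was 0.06 ± 0.04, adjusted p = 0.26.

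GCLM moved in opposite directions. In high glucose with CGRP it measured 67.8, 67.7 and 70.7 CPM, below all 3 controls, and fell by 0.31 (SE 0.07, adjusted p = 0.011), a call lost in 3 of 26 alternatives at adjusted p-values of 0.054 to 0.056, each with 1 high-glucose library left out. In deprived medium with CGRP it measured 138, 123 and 143 CPM, above all 3 controls, and rose by 0.48 ± 0.07, adjusted p = 0.00019. In 2-DG medium the CGRP libraries lay at 87.3, 88.5 and 88.1 CPM and the difference was -0.14 ± 0.07, adjusted p = 0.19. GCLC, its partner subunit, measured 84.8, 81.5 and 86.0 CPM with CGRP in high glucose, with a difference of -0.22 ± 0.08 and an adjusted p of 0.13, although no library overlapped the controls. In 2-DG medium GCLC measured 91.7, 96.7 and 90.2 CPM with CGRP and fell by 0.26 (SE 0.08, adjusted p = 0.035), a call lost in 9 of 26 alternatives, among them RLE size factors at an adjusted p of 0.056. In deprived medium GCLC measured 434, 358 and 452 CPM, which overlaps its controls, and the difference was 0.12 ± 0.08, adjusted p = 0.32. With both libraries that stand apart left out, GCLC rose there by 0.22 ± 0.03, adjusted p = 3.7e-06.

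HMOX1 passed the CGRP test in deprived medium and not in the other media. Its deprived CGRP libraries held 90.6, 88.7 and 102 CPM, all above the highest deprived control, a 1.77-fold rise with a log2 difference of 0.83 ± 0.08 and an adjusted p of 8.8e-06. In high glucose with CGRP it measured 11.1, 10.0 and 10.9 CPM and in 2-DG medium 10.5, 11.0 and 10.7 CPM. The differences there were 0.05 ± 0.09 and 0.12 ± 0.09, adjusted p = 0.89 and 0.48. The HMOX1 difference in deprived medium lay between 0.75 and 0.94 over 26 alternative analyses and passed in all of them.

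OSGIN1 and NQO1 also rose with CGRP in deprived medium. OSGIN1 reached 38.8, 44.6 and 41.4 CPM, a rise of 0.26 ± 0.07, adjusted p = 0.025, which was lost in 4 of 26 alternatives. NQO1 reached 157, 196 and 156 CPM, a rise of 0.33 ± 0.09, adjusted p = 0.021, and the highest of these is the library that stands apart. Leaving out both such libraries gave an NQO1 difference of 0.22 ± 0.03, adjusted p = 4.5e-06, and 4 of 26 alternatives lost the call. In high glucose with CGRP OSGIN1 measured 6.40, 6.67 and 6.46 CPM, below all 3 controls, with a difference of -0.27 ± 0.09 and an adjusted p of 0.096. NQO1 measured 107, 115 and 116 CPM there and overlapped its controls.

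TXNRD1 fell with CGRP in high glucose, to 523, 503 and 530 CPM, by 0.35 on the log2 scale (SE 0.09, adjusted p = 0.039), with no library overlapping the controls. That call was lost in 14 of 26 alternative analyses, in all of which the direction held. With only the high-glucose libraries in the model the difference was -0.34 ± 0.03, adjusted p = 2.9e-12. Without both libraries that stand apart the adjusted p was 2.8e-12. In deprived medium TXNRD1 measured 1133, 859 and 1181 CPM with CGRP. The library at 859 CPM stands apart and lies within the control range, while the other 2 lie well above it. The difference was 0.27 ± 0.09, adjusted p = 0.063, and without both libraries that stand apart it was 0.41 ± 0.03, adjusted p = 4.3e-13. In 2-DG medium the CGRP libraries held 559, 575 and 592 CPM and the difference was -0.16 ± 0.09, adjusted p = 0.30.

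In edgeR with TMM scaling and all 18 libraries, ME1 and SRXN1 passed the CGRP test in no medium. ME1 with CGRP measured 68.6, 69.9 and 73.2 CPM in high glucose, with a difference of -0.19 ± 0.06 and an adjusted p of 0.071, against 0.021 in DESeq2 and 0.033 under total-count scaling. It measured 55.9, 64.5 and 55.4 CPM in deprived medium and 76.9, 78.3 and 75.7 CPM in 2-DG medium. SRXN1 with CGRP measured 0.980, 1.44 and 1.40 CPM in high glucose, 3.11, 1.58 and 2.67 CPM in deprived medium and 1.18, 1.06 and 0.888 CPM in 2-DG medium. Its differences were -0.29 ± 0.26, -0.55 ± 0.22 and -0.74 ± 0.27, and the low counts leave each of them wide.

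**Figure D3:**
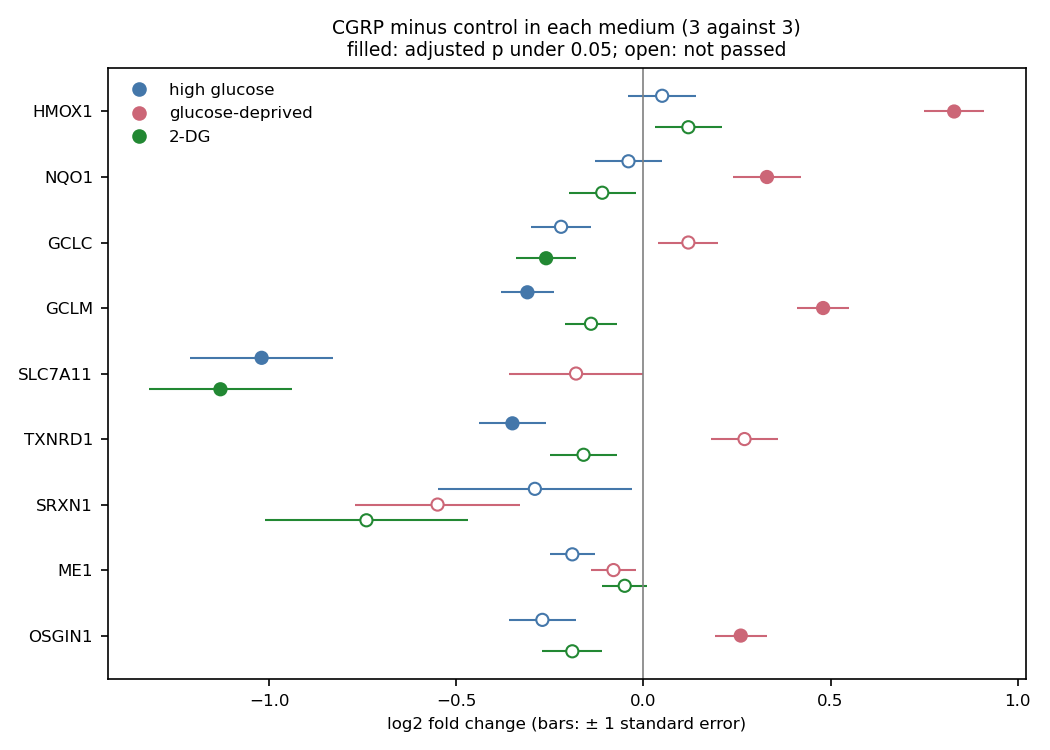
Log2 fold change of each gene with CGRP against control in high-glucose (blue), glucose-deprived (red) and 2-DG medium (green), with bars of 1 standard error, from 3 against 3 libraries; filled points passed an adjusted p of 0.05. HMOX1, NQO1, GCLM and OSGIN1 have filled red points between 0.26 and 0.83, while the filled blue and green points, of GCLC, GCLM, SLC7A11 and TXNRD1, lie between -1.13 and -0.26.

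Whether the CGRP differences themselves depended on the medium was tested as an interaction. The CGRP difference was higher in deprived medium than in high glucose for 4 of the 9 genes, in a test that 1.55% of all genes passed, 0.903% higher and 0.650% lower. They were GCLM at 0.79 ± 0.09, HMOX1 at 0.77 ± 0.12, TXNRD1 at 0.62 ± 0.13 and OSGIN1 at 0.54 ± 0.11 on the log2 scale, with adjusted p-values of 0.00036, 0.0025, 0.021 and 0.021. The calls of TXNRD1 and OSGIN1 were lost in 8 and 7 of 26 alternatives. Both differences in GCLM had passed on their own, in opposite directions. SLC7A11, at 0.84 ± 0.26, did not pass, adjusted p = 0.15, and without both libraries that stand apart it was 1.07 ± 0.06, adjusted p = 2.9e-13. The CGRP difference was lower in 2-DG than in deprived medium for 3 of the 9, where 3.87% of all genes passed, 1.69% higher and 2.18% lower. They were HMOX1 at -0.71 ± 0.12, GCLM at -0.62 ± 0.09 and OSGIN1 at -0.45 ± 0.11, adjusted p = 0.0029, 0.0012 and 0.031. The OSGIN1 call was lost in 7 of 26 alternatives, at adjusted p-values up to 0.10. These interactions share the deprived libraries and are not independent of each other. Between 2-DG medium and high glucose 0 of the 9 passed in edgeR, 0 had an unadjusted p under 0.05 and DESeq2 called 0, where 0.391% of all genes passed. The differences there ran from -0.45 for SRXN1 to 0.19 for TXNRD1. SLC7A11 passed when both libraries that stand apart were left out, at -0.30 ± 0.07, adjusted p = 0.006.

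Leaving out both libraries narrowed most standard errors and raised the number of calls, among the 9 and among all genes. In high glucose 6 of the 9 passed, all of them lower, where 19.1% of all genes passed, 9.92% lower. In deprived medium 7 of the 9 passed, of which 6 were higher and ME1 was lower at -0.15 ± 0.04, where 28.7% of all genes passed, 12.1% higher. In 2-DG medium 4 of the 9 passed, all lower, where 28.4% of all genes passed, 16.1% lower. The interaction between deprived medium and high glucose passed in 7 of the 9, all higher in deprived medium, where 13.5% of all genes passed, 5.86% higher. Every gene that passed a CGRP test with all 18 libraries had the same direction and passed without both.

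**Figure D4:**
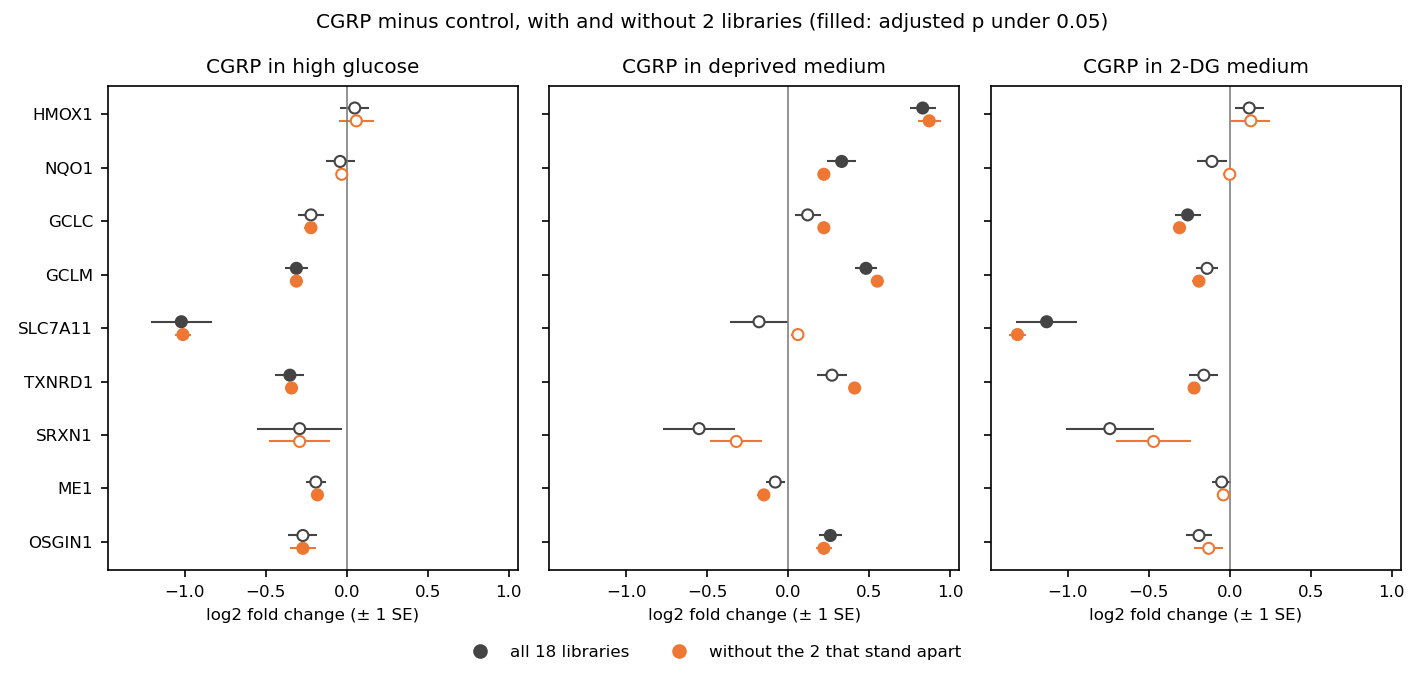
Log2 fold change with CGRP against control in each medium, with bars of 1 standard error, from all 18 libraries (dark grey) and without the deprived CGRP and 2-DG control libraries that stand apart (orange); filled points passed an adjusted p of 0.05. In deprived medium TXNRD1 moves from 0.27 to 0.41 and SLC7A11 from -0.18 to 0.06, and most orange bars are shorter than the grey ones.

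Levels between the 9 genes can be compared roughly per kilobase of exon. The length is that of all annotated exons of a gene merged, not of the transcripts expressed, so the order depends on the annotation. In the high-glucose controls TXNRD1 stood highest at 98.6 ± 1.18 CPM per kb, followed by NQO1 at 35.5 ± 0.507, ME1 at 23.9 ± 0.279 and GCLM at 15.8 ± 0.160. GCLC was at 11.4 ± 0.294, SLC7A11 at 7.33 ± 0.124, HMOX1 at 4.28 ± 0.0948, OSGIN1 at 2.27 ± 0.198 and SRXN1 at 0.575 ± 0.0929. In the deprived controls GCLC, at 44.1 ± 1.74 CPM per kb, and SLC7A11, at 39.3 ± 0.896, were next to NQO1, at 41.6 ± 0.301, and above GCLM, at 17.9 ± 1.26. On this measure the modifier subunit of glutamate-cysteine ligase was ahead in high glucose, at 15.8 against 11.4 CPM per kb. The catalytic subunit was ahead without glucose, at 44.1 against 17.9.

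Across the 6 groups, HMOX1, OSGIN1, GCLM and NQO1 had their highest level in deprived medium with CGRP, and the libraries of that group did not overlap those of the group ranked next. GCLC and TXNRD1 had their highest mean there too, but overlapped the deprived controls through the library that stands apart. Its mates held 434 and 452 CPM of GCLC and 1133 and 1181 CPM of TXNRD1, all above the controls. SRXN1 was highest in the deprived controls. SLC7A11 had a higher mean in the deprived controls, 379 CPM, than with CGRP, 335 CPM, but the mean with CGRP was 393 CPM without the library that stands apart, so that the order turned, and the groups overlapped in both cases. Below the deprived groups, SLC7A11 descended from 2-DG control through high-glucose control and 2-DG CGRP to high-glucose CGRP with no overlap between neighbours, whereas each of the 4 HMOX1 groups with glucose overlapped its neighbour in rank. The highest and the lowest of these 4, 2-DG CGRP and 2-DG control, did not overlap, with a test that did not pass. The share of all genes whose groups do not overlap was worked out for deprivation without CGRP only. The gaps named here and in the CGRP comparisons therefore have no background to be set against.

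Over the 18 libraries GCLC and OSGIN1 were the most similar pair of the 9, with a Pearson r of 0.99 between log2 levels, and HMOX1 and ME1 the most opposed, with r = -0.91. These correlations describe 6 groups that share the deprivation contrast. Outside the set, DDIT3 was most like OSGIN1 (r = 0.997), IARS1 and XPOT were most like SLC7A11 (r = 0.995 each), SLC6A9 most like GCLC (r = 0.996) and ADAM23 most like HMOX1 (r = 0.993). Among 12502 other genes, 1321 reached an r of 0.9 with SLC7A11 and 1800 with OSGIN1, so many genes share these patterns. GCLM was different, with 3 genes at that level, the nearest of them TRIM16L (r = 0.940) and DUSP4 (r = 0.932). NQO1 was most like TMEM40 (r = 0.965), TXNRD1 like CSF1R (r = 0.967), ME1 like UCHL5 (r = 0.967) and SRXN1 like DPH1 (r = 0.935).

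The regulators of the pathway were read from a list of 12 genes, all of which were tested. Deprivation raised 6 of the 12 and lowered 1, a share of 58.3% beside 60.6% of all genes. SQSTM1, an autophagy receptor that can bind KEAP1, rose by 1.82 ± 0.07 on the log2 scale, from 622 ± 8.78 to 2202 ± 44.6 CPM. NFE2L1, a relative of NRF2, rose by 1.38 ± 0.07, and MAFF, a small MAF partner, by 1.13 ± 0.06. NFE2L2 itself rose by 0.32 ± 0.05, adjusted p = 1.8e-05, while KEAP1, at 0.08 ± 0.07, and BACH1, at -0.01 ± 0.12, did not pass; these 3 are named as the centre of the pathway with their values known.

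With CGRP 4 of the 12 regulators fell in high glucose, 3 in deprived medium and 5 in 2-DG medium, and none rose. These are 33.3%, 25% and 41.7% of the list, beside 4.33%, 13.0% and 12.2% of all genes. MAFF fell in all 3 media, by 0.47 (SE 0.06), 0.43 (SE 0.05) and 0.58 (SE 0.06), with adjusted p-values of 0.00012, 9.5e-05 and 5.7e-06. SQSTM1 fell by 0.36 (SE 0.07) in high glucose and by 0.56 (SE 0.07) in 2-DG medium, and was at 0.17 ± 0.07 in deprived medium, adjusted p = 0.11. Its CGRP difference was higher in deprived medium than in high glucose by 0.53 ± 0.10, adjusted p = 0.0087. NFE2L2 did not pass with CGRP in any medium, at -0.01 ± 0.05, -0.13 ± 0.05 and 0.09 ± 0.05, and neither did KEAP1, at 0.03 ± 0.07, 0.19 ± 0.07 and -0.03 ± 0.07. In deprived medium 5 of the 12 passed when both libraries that stand apart were left out, 4 lower and 1 higher. Total-count scaling gave 3 lower and 2 higher. In these fits 5307 and 2217 of all genes passed, in place of 2354. With only the libraries of each medium in its own model 6 fell in high glucose, 0 passed in deprived medium and 3 fell in 2-DG medium. Over all genes 3653, 141 and 1194 then passed in place of 787, 2354 and 2216.

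Of 24 other NRF2 targets, CGRP raised 8 and lowered 1 in deprived medium, with a median of 0.30 against 0.01 for all genes. That is 37.5% of the list beside 13.0% of all genes. The count was 16 higher and 1 lower when both libraries that stand apart were left out, 13 and 1 under total-count scaling, and 5 and 0 with only the deprived libraries in the model, where 5307, 2217 and 141 of all genes passed in place of 2354. GPX2, a glutathione peroxidase of epithelia, rose by 1.13 ± 0.10, from 9.11 ± 0.166 to 19.997 ± 2.52 CPM, and its CGRP difference exceeded that in high glucose by 1.05 ± 0.13, adjusted p = 6e-04. The aldo-keto reductases AKR1C3 and AKR1C2 rose by 1.26 ± 0.14 and 1.01 ± 0.08, but their sequences are close enough that reads may be split between them. In high glucose 1 of the 24 rose and 3 fell, and in 2-DG medium 3 rose and 3 fell, which is 16.7% and 25% beside 4.33% and 12.2% of all genes. AKR1B10, a reductase of aldehydes and retinal, rose in both, by 1.22 ± 0.19 and 1.25 ± 0.20, and ABCC3, an efflux transporter of conjugates, fell by 0.57 (SE 0.11) and 0.65 (SE 0.11). ABCC3 was also the 1 target that fell in deprived medium, at -0.53 ± 0.11. Deprivation raised 10 of the 24 and lowered 8, among them UGDH, which makes UDP-glucuronate, at 1.55 ± 0.05 and AKR1B10 at -2.68 ± 0.29. The share that passed was 75%, beside 60.6% of all genes, and under total-count scaling the split was 10 higher and 11 lower.

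Of 24 tested genes of glutathione synthesis and use, CGRP lowered 1 in high glucose and raised 2 in deprived medium. In 2-DG medium 5 passed, of which 2 rose and 3 fell. These are 4.17%, 8.33% and 20.8% of the list, beside 4.33%, 13.0% and 12.2% of all genes. With only the libraries of each medium in its own model 4 rose and 2 fell in high glucose and 0 passed in deprived medium. In 2-DG medium 0 rose and 2 fell. Over all genes 3653, 141 and 1194 then passed in place of 787, 2354 and 2216. CHAC1, which breaks glutathione down, fell by 1.55 (SE 0.14) in high glucose, from 5.18 ± 0.631 to 1.77 ± 0.271 CPM, and by 1.12 (SE 0.14) in 2-DG medium. SLC3A2, the heavy chain that carries SLC7A11 to the membrane, fell by 0.62 (SE 0.08) in 2-DG medium, adjusted p = 8.4e-05, and was at -0.26 ± 0.08 in high glucose, adjusted p = 0.084. Deprivation raised CHAC1 by 2.56 ± 0.11 and SLC3A2 by 1.26 ± 0.08, as 2 of 6 genes of the list that rose, while 10 fell, and 66.7% passed beside 60.6% of all genes. Glutathione reductase, GSR, which recycles oxidised glutathione, was among those that fell, at -0.87 ± 0.04, adjusted p = 1.2e-11. GSTM4, a glutathione transferase, fell by 1.04 (SE 0.06). With CGRP in deprived medium the 2 genes that rose were GSTM4, at 0.34 ± 0.06, and GPX8, at 0.24 ± 0.06.

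Of 20 genes of the thioredoxin and peroxide-removal systems, deprivation lowered 12 and raised 3, which is 75% of the list beside 60.6% of all genes, with a median of -0.53 against 0.02. TXNIP, a thioredoxin-binding protein whose transcription follows glucose, went from 574 ± 28.3 to 13.4 ± 0.257 CPM, and mitochondrial superoxide dismutase SOD2 from 1609 ± 7.71 to 103 ± 15.8 CPM. On the log2 scale TXNIP fell by 5.42 (SE 0.07) and SOD2 fell by 3.96 (SE 0.09). SESN2, a stress-induced sestrin, rose by 2.77 ± 0.05. Peroxiredoxin 1, PRDX1, fell by 0.93 (SE 0.13). With CGRP 1 rose and 2 fell in high glucose, 1 rose and 4 fell in deprived medium, and 3 rose and 1 fell in 2-DG medium, or 15%, 25% and 20% of the list beside the same shares of all genes as above. TXNIP was one of them in each medium, rising by 0.35 ± 0.06 in high glucose and 0.33 ± 0.06 in 2-DG medium and falling by 0.34 (SE 0.07) in deprived medium, where it was already low. With only the libraries of each medium in its own model 7 of the list rose and 4 fell in high glucose and 0 passed in deprived medium. In 2-DG medium 2 rose and 0 fell. Over all genes 3653, 141 and 1194 then passed in place of 787, 2354 and 2216.

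**Figure D5:**
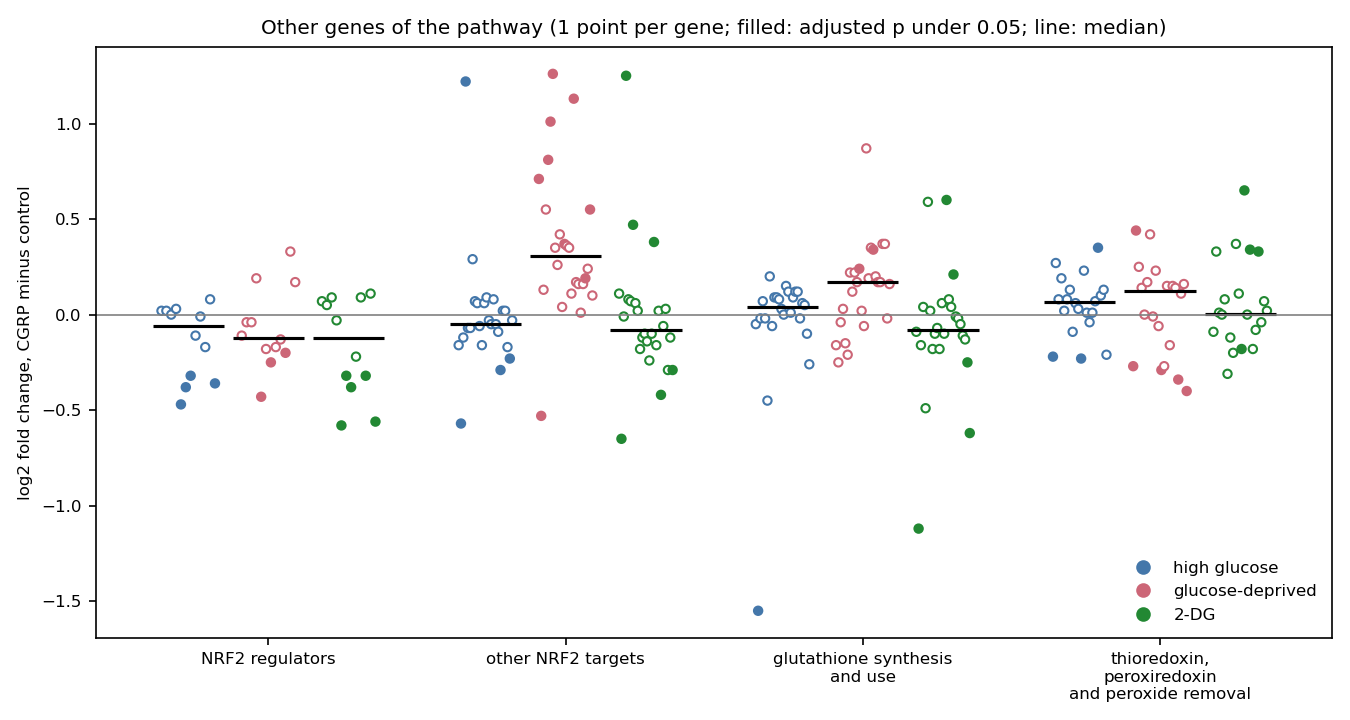
Log2 fold change with CGRP against control (vertical axis) for the genes of 4 lists in high-glucose (blue), glucose-deprived (red) and 2-DG medium (green), with 1 point per gene, lines at the median and filled points for an adjusted p under 0.05. The other NRF2 targets have a median of 0.30 in deprived medium, where 8 rose, and of -0.05 and -0.08 in the other media.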

How the data were processed

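Total RNA was extracted with Trizol and made into libraries by standard Illumina methods, per the labels' protocols. The authors deposited 1 table of raw read counts for 60683 Ensembl genes in 18 libraries, per the file headers. Reads were aligned with HISAT2 2.0.4, per the submitters' processing notes, which name both hg19 and GRCh38 without a role; the counter, its annotation and the strand setting were not stated. Gene coordinates are therefore not given, and overlapping genes such as SRXN1 and the close paralogs of the AKR1C family are uncertain.

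From these counts, genes were kept by edgeR's filterByExpr (minimum count 10), scaled by TMM and fitted with 1 coefficient per group in edgeR 4.0.16 (R 4.3.3), robust quasi-likelihood, with Benjamini-Hochberg adjustment over all 18159 genes tested in each of 9 comparisons and a threshold of 0.05. Log2 fold changes carry standard errors. Symbols came from the gene name table for 60370 genes and from GENCODE 29 for 289; exon lengths are merged exons of GENCODE 29. Likeness was Pearson's r of log2(CPM + 2) over the 18 libraries. Alternatives were RLE size factors, total counts, DESeq2 1.42.0, no filter, a stricter filter (over 1 CPM in at least 3 libraries and a mean over 2 CPM), only the groups compared, the replicate number as a block, each library left out in turn, and both libraries that stand apart left out. The edgeR step was tested on simulated counts with known changes.

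The 9 genes, the lists, the alternatives and the tests were chosen with earlier results of these data known. All 9 genes were eligible to be named in all comparisons. Of each list and comparison, the 3 genes with the widest change were eligible, among those that passed at an average log2 CPM of at least 1. Only some of these are given. For likeness the 2 nearest genes were eligible, of which some are given. Outside this rule are the values with CGRP of ABCC3 and SQSTM1 in deprived medium and of SLC3A2 in high glucose. NFE2L2, KEAP1, BACH1, GSR and PRDX1 were named after their values were seen. GPX3 and MGST1 of the glutathione list did not pass the filter.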

Additional observations from a re-analysis of the deposited data

Results flagged for a closer look

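The difference with CGRP depended on the medium in 7 tests, each an interaction in edgeR with Benjamini-Hochberg adjustment over all genes. Between deprived medium and high glucose, on the log2 scale, HMOX1 differed by 0.77 (adjusted p = 0.0025), GCLM by 0.79 (adjusted p = 0.00036), TXNRD1 by 0.62 (adjusted p = 0.021) and OSGIN1 by 0.54 (adjusted p = 0.021), in each case higher in deprived medium. Between 2-DG and deprived medium HMOX1 differed by -0.71 (adjusted p = 0.0029), GCLM by -0.62 (adjusted p = 0.0012) and OSGIN1 by -0.45 (adjusted p = 0.031). Without both libraries that stand apart the values were 0.81, 0.85, 0.75 and 0.48 for HMOX1, GCLM, TXNRD1 and OSGIN1 against high glucose, and -0.74, -0.74 and -0.35 for HMOX1, GCLM and OSGIN1 between 2-DG and deprived medium, and all 7 passed. With all alternatives counted, the OSGIN1 calls were each lost in 7 of 26 and that of TXNRD1 in 8 of 26. Groups of 3 libraries are too small for a test of single outlying libraries.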

How the results depend on the processing

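Of 2096 pairs of a gene's log2 difference and an alternative analysis, over 81 differences, 1914 kept direction and side of the threshold. Of the rest, 82 lost the call, 67 gained it and 33 changed sign. The causes of these changes were not tested. The number of the 9 genes that passed, with single libraries left out, ran from 1 (without high-glucose control 2) to 5 (without deprived CGRP 2) for CGRP in high glucose, from 2 to 7 in deprived medium, from 1 to 4 in 2-DG medium, from 7 to 9 for deprivation, from 0 to 4 for 2-DG against high glucose, from 2 to 6 and from 2 to 7 for the interactions of deprived medium with high glucose and with 2-DG, and stayed at 7 for 2-DG against deprivation and at 0 for the interaction of 2-DG with high glucose. Over all genes these counts ran from 353 to 1565 for CGRP in high glucose. They ran from 1282 to 2726 in deprived medium and from 1447 to 3853 in 2-DG medium. For deprivation the range was 10064 to 12288, for 2-DG against high glucose 1593 to 4274, and against deprivation 9434 to 11791. For the interactions of deprived medium with high glucose and with 2-DG it was 162 to 582 and 427 to 1002. For that of 2-DG with high glucose it was 13 to 324. Without both libraries that stand apart the counts of the 9 were 6, 7 and 4 for CGRP in high glucose, deprived and 2-DG medium, 4 for 2-DG against high glucose, and 7, 1 and 7 for the 3 interactions. With only the groups compared they were 6, 1 and 1 for CGRP in the 3 media. For CGRP in 2-DG medium the count was 1 with RLE factors, total counts or no filter. Of all genes, 2155, 2219 and 1562 passed in these fits, in place of 2216. For the interaction of 2-DG with deprived medium the count of the 9 was 7 with DESeq2 and with the stricter filter. There 1081 and 857 of all genes passed, in place of 702.

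No pairing by replicate number was seen. Deviations of same-numbered libraries had a median r of -0.00, from -0.49 to 0.87 over 45 pairs. Those of different numbers had a median of 0.00, from -0.81 to 0.74 over 90 pairs. Of 18 libraries, 6 were closest to their own number. Both libraries that stand apart carry number 2, so these values could not exclude a weak pairing. With the replicate block the count of the 9 genes was 1 for 2-DG against high glucose and 5 for the interaction of 2-DG with deprived medium. Of all genes, 2573 and 714 then passed, in place of 2513 and 702.

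Signs changed for SLC7A11 with CGRP in deprived medium (0.06), NQO1 with CGRP in 2-DG medium (0.00), TXNRD1 (0.02) and SRXN1 (-0.11) for 2-DG against high glucose, and NQO1 (0.03) for the interaction of 2-DG with high glucose, all without both libraries that stand apart. NQO1 for 2-DG against deprivation was 0.00 with RLE factors and DESeq2, 0.08 with total counts and 0.01 with no filter or the stricter one, and GCLC for the interaction of 2-DG with high glucose was 0.00 with total counts. With single libraries left out the ranges that crossed 0 were, for 2-DG against deprivation, -0.10 to 0.05 for NQO1 and -0.04 to 0.08 for GCLM, with GCLM at -0.04, -0.03 and -0.00 and NQO1 at 0.01, 0.02 and 0.05 among the changed signs; for SLC7A11 with CGRP in deprived medium -0.31 to 0.06; for NQO1 with CGRP in 2-DG medium -0.17 to 0.00; for 2-DG against high glucose -0.08 to 0.02 for TXNRD1 and -0.11 to 0.33 for SRXN1; for the interaction of 2-DG with high glucose -0.13 to 0.03 for NQO1, -0.09 to 0.02 for GCLC and -0.30 to 0.00 for SLC7A11; and for that with deprived medium -0.42 to 0.07 for SRXN1 and -0.02 to 0.09 for ME1, with ME1 at -0.01 and -0.02.

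Over all genes, the counts of CGRP in high glucose, deprived and 2-DG medium were 787, 2354 and 2216, and without both libraries that stand apart 3520, 5307 and 5249; with only the groups compared they were 3653, 141 and 1194, and with no filter 474 and 1463 in the first 2 media. For 2-DG against high glucose 2513 became 5997 and 1551 under the same 2 alternatives. For the interactions of deprived medium with high glucose, of 2-DG with high glucose and of 2-DG with deprived medium, 282, 71 and 702 became 2500, 1092 and 3219 without both libraries, 519, 228 and 1081 in DESeq2, 163, 30 and 430 with no filter, and 164, 142 and 211 with only the groups compared. The share that was higher moved with total counts from 51.2% to 38.0% for deprivation, from 57.7% to 38.1% for 2-DG, from 49.2% to 66.2% for CGRP in deprived medium and from 43.5% to 57.0% in 2-DG medium. SRXN1 gave no value under the stricter filter, and its 27 to 118 reads per library limit what can be detected for it. Of 936 pairs of a list's count and an alternative, 832 stayed within 1.5 times.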
